A study of Mus musculus with 8 samples.

Results

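Mouse c-Kit+ bone marrow with Smc3 deletion (4 libraries) was compared with marrow without it (4 libraries) by the width of open chromatin regions found in every library. The regions were found by merging overlapping peaks of all 8 lists (1 shared bp sufficed) and by keeping regions on chromosomes 1 to 19 that had a peak in every library. This left 35155 of 114533 merged regions (30.7%). In 19103 of these, at least 1 bp was covered in all 8 libraries at once. The others were joined through chains of overlapping peaks, so they need not be the same site in every library. ATAC-seq, which uses the Tn5 transposase to cut and tag accessible DNA, was performed on 50000 cells per library, taken 4 weeks after injection of PIpC. PIpC raises interferon and so switches on the Mx1-Cre recombinase, which acts in blood cells and in other interferon-responsive tissues.

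The side with Smc3 deletion held 2 Smc3 del/+ libraries, from mice with Mx1-Cre, and 2 Smc3-deleted Flt3-ITD libraries, from mice with Mx1-Cre, a floxed Smc3 allele and Flt3-ITD. The genotype label of the latter reads Smc3 fl/del and their title reads Smc3het, so the state of the second Smc3 allele is not settled. The side without deletion held 2 control libraries, from Smc3 fl/+ mice that lack Mx1-Cre, and 2 Flt3-ITD libraries, whose title marks them as carrying Mx1-Cre. Smc3 deletion and Mx1-Cre therefore cannot be told apart in Smc3 del/+ against control. In the free-text descriptions, the Smc3 del/+ libraries carry the text of Flt3-ITD and the reverse; title and genotype label were followed here. All cells came from marrow selected on c-Kit with magnetic beads, and the labels give no age or sex. Marrow came from individual mice, but the labels do not say that both libraries of a genotype came from different mice, so each p-value reflects only how these libraries spread, which may be technical.

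Smc3 is a core subunit of cohesin, the ring-shaped complex that holds sister chromatids together and extrudes chromatin loops until it meets CTCF bound to DNA. Loss-of-function mutations in cohesin genes occur in myeloid leukemia, usually on a single allele, and often together with activating lesions such as Flt3-ITD, an internal tandem duplication of the Flt3 receptor tyrosine kinase. The width of an ATAC-seq peak reflects how far accessible DNA extends around a site, and also how the peak caller draws its borders.

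The 8 lists held between 61953 and 80698 peaks. Both Smc3-deleted Flt3-ITD libraries stood apart from the other 6 by list length and by 282 and 294 peaks on the Y chromosome, against 84 to 98 elsewhere, which is why only autosomal regions were used. The lists hold no read depth, so no counting interval can be given for a width. Regions are named by mm9 coordinates, and no gene was assigned to them.

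Widths of the shared regions came in 2 forms. Over the 281240 widths (35155 regions in 8 libraries), the most frequent width lay at 375 bp, a second mode lay at 1095 bp, and the fewest widths between them lay at 885 bp. A region was called broad in a library when its peaks covered more than 885 bp there, and narrow otherwise. Each library had both forms. The median broad region measured between 1141 and 1161 bp in the 8 libraries. The median narrow region measured 393 bp in both Smc3-deleted Flt3-ITD libraries, 395 bp in both control libraries, 401 and 402 bp in Flt3-ITD and 404 and 403 bp in Smc3 del/+. The genotypes differed in the share of regions in each form and, by a few bp, in the width of the narrow form itself.

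**Figure D1:**
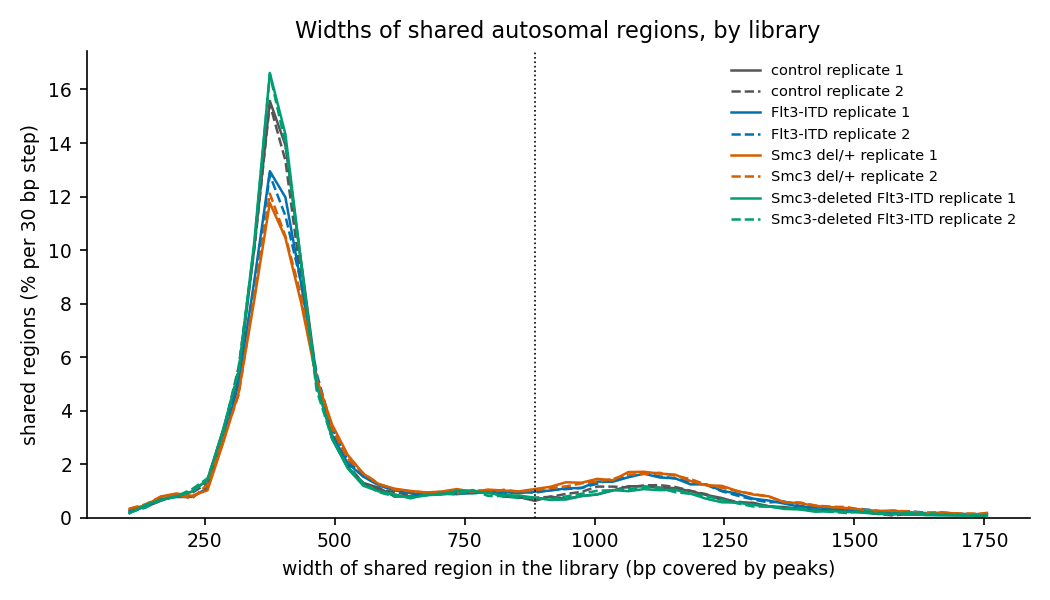
The percentage of the 35155 shared autosomal regions (vertical axis, per 30 bp step) is plotted against region width in bp (horizontal axis), with 1 line per library, coloured by genotype, solid for replicate 1 and dashed for replicate 2; the dotted line marks 885 bp. Control and Smc3-deleted Flt3-ITD libraries have the higher peak near 375 bp, and Flt3-ITD and Smc3 del/+ libraries the higher one near 1095 bp.

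The broad form covered 26.2% and 25.8% of shared regions in the Smc3 del/+ libraries and 17.1% and 17.9% in control. With Flt3-ITD the order was the opposite: 15.7% and 16.6% of regions were broad in Smc3-deleted Flt3-ITD and 23.7% and 23.6% in Flt3-ITD. The genotype with Smc3 deletion thus lay 8.48 percentage points above its partner without Flt3-ITD and fell by 7.52 percentage points against its partner with Flt3-ITD, while the 2 libraries of a genotype differed by less than 1 percentage point in each case. Averaged over both backgrounds, the broad share was 21.1% ± 5.73 with Smc3 deletion and 20.6% ± 3.54 without (SD, n = 4 each). This difference of 0.479 percentage points was far within the spread of either side (exact two-sided permutation p = 0.83 over 70 assignments).

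Median widths followed the same order. Smc3 del/+ libraries had medians of 449 and 444 bp and control libraries 414 and 415 bp, a difference of 32.0 bp (7.72%). In Flt3-ITD mice the medians were 433 and 435 bp, and those of Smc3-deleted Flt3-ITD were 410 and 411 bp, a difference of -23.5 bp (-5.41%). The sides with and without Smc3 deletion overlapped, with means of 428.5 ± 20.9 bp and 424.2 ± 11.3 bp (SD, n = 4 each; exact permutation p = 0.657). A contrast not planned for library values set control and Smc3-deleted Flt3-ITD together against the single genotypes. The difference was -27.8 bp, and no library of one set reached into the other (exact permutation p = 0.0286, the smallest that 70 assignments can give). With libraries of a genotype this close together, this contrast, the Smc3 or the Flt3-ITD contrast was bound to reach that p. After Benjamini-Hochberg adjustment over the 12 tests of this family, that contrast did not pass (adjusted p = 0.0857), and the Smc3 contrast had an adjusted p of 0.789.

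**Figure D2:**
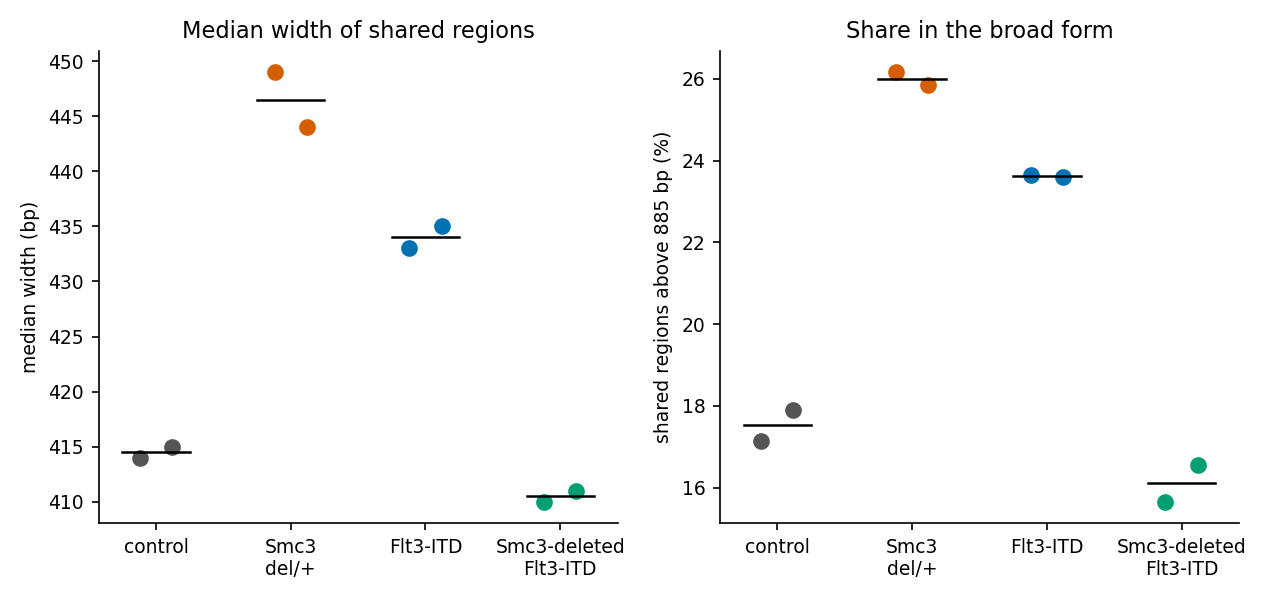
Median width of the shared regions in bp (left) and the percentage of shared regions above 885 bp (right) are shown for each library as a dot, by genotype, with a line at the mean of the 2 libraries; neither vertical axis starts at 0. Smc3 del/+ lies above control, and Smc3-deleted Flt3-ITD lies below Flt3-ITD.

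List length and score went with these widths in the widest and the narrowest genotype, while control and Flt3-ITD overlapped in both values. The single genotypes, with the wider regions, had between 61953 and 67152 peaks, while control and Smc3-deleted Flt3-ITD had between 64777 and 80698. The share of shared regions with the authors' score at its ceiling of 1 was 42.1% and 43.2% in Smc3 del/+, 57.8% and 51.5% in control, 54.6% and 51.8% in Flt3-ITD and 66.7% and 66.3% in Smc3-deleted Flt3-ITD. The widest genotype thus had the lowest share at the ceiling and the narrowest genotype the highest. The part of either list length or score in the widths was not tested beyond an equal number of peaks and the best-scoring 50%. With the 61953 highest-scoring peaks of every list, the Smc3 differences in median width were 33.0 bp without Flt3-ITD and -24.5 bp with it. Restricted to the best-scoring 50%, the differences were 30 bp without Flt3-ITD and -21 bp with it. Those in the broad share were then 10.0 and -8.22 percentage points. Peaks of equal score were ranked by width, the widest first, so both choices can themselves favour wide peaks.

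Splitting of sites into several peaks showed a pattern opposite in sign. Regions with more than 1 peak made up 5.12% and 5.02% of shared regions in Smc3 del/+, against 5.75% and 5.60% in control, and 5.64% and 5.68% in Smc3-deleted Flt3-ITD, against 5.38% and 5.26% in Flt3-ITD. Both Smc3 del/+ libraries lay below both control libraries, and both Smc3-deleted Flt3-ITD libraries above both Flt3-ITD libraries. With an equal number of peaks these differences changed sign, from -0.606 to 0.105 percentage points without Flt3-ITD and from 0.336 to -0.875 with it. For Smc3 deletion as a whole the difference was -0.135 percentage points (exact permutation p = 0.543).

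Shared regions were also divided into 5 classes of nearly equal size by their mean width over all 8 libraries. An intermediate mean arises mainly where some libraries have the broad form and others the narrow one, so the class with the most change of form is fixed by this division, and the values describe only the order of the genotypes. In the fourth class, with means from 574.1 to 765.5 bp, the median width was 458.5 ± 7.78 bp in control, 653 ± 14.1 bp in Smc3 del/+, 567.2 ± 12.4 bp in Flt3-ITD and 442 ± 0 bp in Smc3-deleted Flt3-ITD (SD, n = 2 each). There, 38.5% of regions were broad in Smc3 del/+ against 21.8% in control, and 19.4% in Smc3-deleted Flt3-ITD against 33.8% in Flt3-ITD. In the narrowest class, up to 398.5 bp, the medians ran only from 369.5 to 374.5 bp, and at most 0.163% of regions were broad. In the widest class, from 765.8 bp, they ran from 947 bp in Smc3-deleted Flt3-ITD to 1081 bp in Smc3 del/+. The order of the 4 genotypes was the same in all 5 classes, with Smc3 del/+ the widest and Smc3-deleted Flt3-ITD the narrowest, although Smc3 del/+ and Flt3-ITD differed by no more than 0.5 bp in the narrowest class.

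For the comparison region by region, each width was divided by its library's median over the shared regions, which takes the library-wide shift in medians out but leaves the shares of the forms in. A linear model with 4 genotype means was fitted to the log2 of these relative widths across all 35155 regions (limma, with Benjamini-Hochberg adjustment). The Smc3 factor was the mean of the genotypes with deletion minus the mean of those without. No region passed an adjusted p of 0.05 (0% of regions called), and the smallest adjusted p was 0.801. At an unadjusted p under 0.05 the model held 1912 regions (5.44% of regions), 976 wider and 936 narrower with Smc3 deletion. Across regions the Smc3 difference had a median of -0.00499 on the log2 scale, 90% of regions lay between -0.75 and 0.72, and 3.59% lay past 1 in either direction. The precision was low for a single region: the median 95% interval reached 0.83 log2 units to either side, so a change in width below about that size was not detectable at a typical region even before adjustment.

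The model gave 0 calls for each background too. Smc3 del/+ against control reached a smallest adjusted p of 0.526, with 2285 regions at an unadjusted p under 0.05 (6.5%), of which 1402 were wider and 883 narrower. Smc3-deleted Flt3-ITD against Flt3-ITD reached 0.483, with 1863 regions at an unadjusted p under 0.05 (5.3%), of which 676 were wider and 1187 narrower. This balance rested on the scaling: without division by the median it was 1874 wider and 597 narrower without Flt3-ITD and 497 and 1426 with it. Under quantile scaling it was 1153 and 964 without and 904 and 992 with Flt3-ITD, and under cyclic loess 1077 and 1049 without and 885 and 863 with it, so the second balance turned. Without the narrowest 25% of regions it was 868 and 945 without Flt3-ITD, where the first turned, and 645 and 810 with it. For the difference between both Smc3 effects, 0 regions passed (smallest adjusted p = 0.732), and 2223 had an unadjusted p under 0.05 (6.32%). The Flt3-ITD factor, fitted in the same model, likewise gave 0 calls, with 2118 regions at an unadjusted p under 0.05 (6.02%).

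No library enters both Smc3 effects, so the second can be set beside the first region by region. The correlation across the 35155 regions was -0.0312 (Pearson) and -0.0353 (Spearman), and 48.2% of regions had the same sign in both. Regions are not independent replicates, and the points within each effect share the same 4 libraries. Of the 2285 regions at an unadjusted p under 0.05 in limma without Flt3-ITD, 241 were also in that range with Flt3-ITD. These are 10.5% of the former list, against 5.3% of all regions in that range with Flt3-ITD. They are 12.9% of the latter list, against 6.5% of all regions in that range without Flt3-ITD. Among these 241 regions, 98 moved in the same direction, 45 wider and 53 narrower. The others, the larger part, moved in opposite directions. Both effects use the same estimate of each region's spread, and its part in this overlap was not tested.

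**Figure D3:**
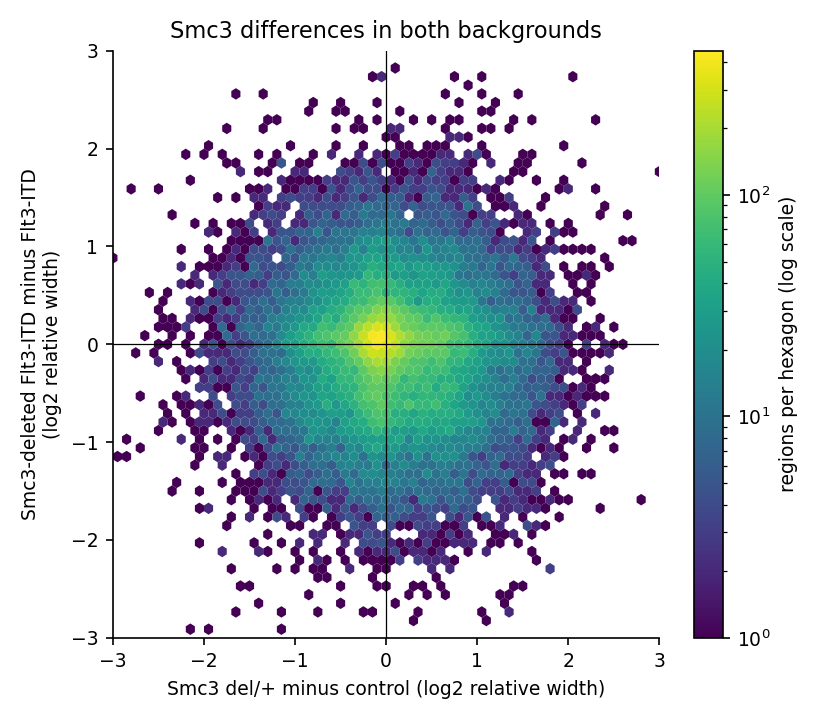
Each shared region is placed by its Smc3 difference without Flt3-ITD (horizontal axis) and with Flt3-ITD (vertical axis), both as differences of log2 relative width, and the colour gives the number of regions per hexagon on a log scale; 9 regions past 3 on either axis are not drawn. The cloud is centred near 0 and shows no slope (Pearson r of -0.0312).

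The count of regions with the sides apart was also taken without a model. At 990 of 35155 regions (2.82% of regions) the relative widths of all 4 libraries on one side lay above those of all 4 on the other, 497 wider (1.41%) and 493 narrower (1.4%) with Smc3 deletion. Across all 35 ways to split the 8 libraries into 4 and 4, counts ran from 874 to 1460 with a median of 983, and 15 splits, the Smc3 split included, reached at least 990 (exact permutation p = 0.429). The Flt3-ITD split gave 1123 regions (3.19%) , which 5 splits reached, itself included (exact permutation p = 0.143). The highest count, 1460 (4.15%), belonged to the split that sets the single genotypes against the other two (exact permutation p = 0.0286, the smallest that 35 splits can give). A test of this count for that split was not planned. In that split 891 regions were wider and 569 narrower in control and Smc3-deleted Flt3-ITD on relative widths, and the direction turned on undivided widths, with 273 wider and 1186 narrower. For the Smc3 split the undivided counts were 526 wider and 461 narrower. With 1 library left out, the first split kept an exact permutation p of 0.0286 without either library of a single genotype, while p was 0.0857 without either control library or either Smc3-deleted Flt3-ITD library.

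**Figure D4:**
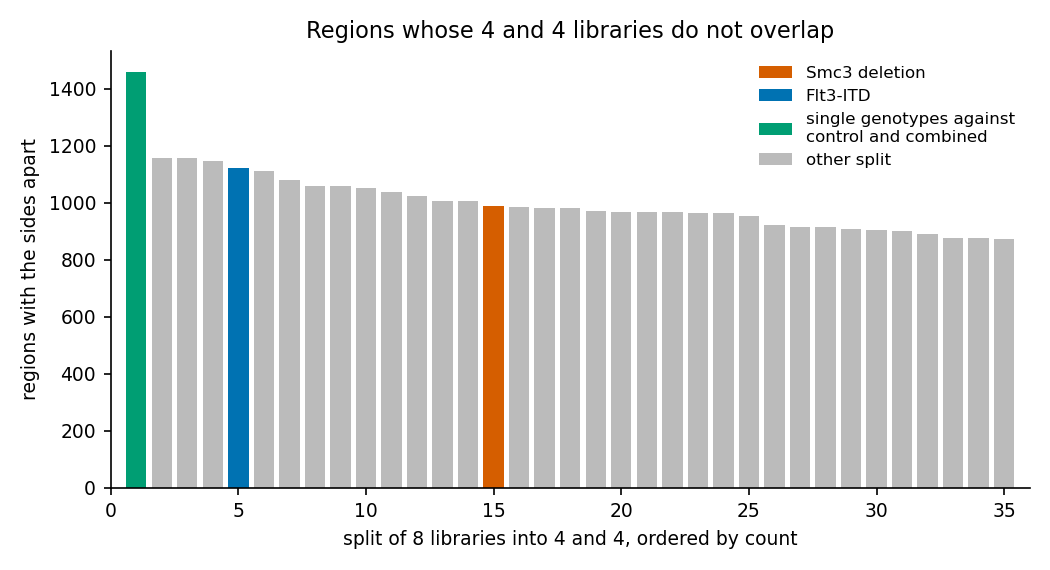
Bars give the number of shared regions whose 4 and 4 libraries do not overlap in relative width, for each of the 35 splits of 8 libraries, ordered by count. The Smc3 split (990) stands among the unmarked splits, near the median of 983 over all 35 splits. The split of single genotypes against control and Smc3-deleted Flt3-ITD has the highest count (1460).

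These 990 regions were spread over the width classes and over the chromosomes. They made up between 2.66% and 3.09% of the 5 width classes, and between 2.11% (chromosome 3) and 3.55% (chromosome 4) of the regions of each autosome. Singled out after the counts were seen, chromosome 4 had 30 wider and 48 narrower regions and chromosome 19 had 10 and 21, differences that were not tested. The median Smc3 difference per chromosome lay between -0.02 (chromosome 5) and 0.01 (chromosome 19) on the log2 scale. When relative widths were averaged over 1 Mb windows with at least 5 shared regions, a view added after the single-region result was known, 0 of 1646 windows passed in limma (0% called; smallest adjusted p = 0.908), and 79 had an unadjusted p under 0.05. Where the sides were apart and each library had exactly 1 peak, the mean positions of both edges lay farther out with deletion in 298 of 406 wider regions and farther in for 290 of 407 narrower regions. The choice of these regions fixes the net direction, so the counts only describe whether 1 or both edges differed.

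Widths of single regions repeated poorly between libraries, and Smc3 status did not mark the closer pairs. The Pearson correlation of log2 relative widths was 0.343 on average over the 4 pairs of the same genotype (0.288 to 0.388), 0.311 over 8 pairs of different genotypes on the same Smc3 side and 0.322 over 16 pairs across the sides. Of the regions broad in control replicate 1, 45.4% were broad in control replicate 2, against 17.9% of all its regions. In Smc3 del/+ the corresponding values were 44.7% and 25.8%. Only 388 regions (1.10%) were broad in all 8 libraries, and 13842 (39.4%) were broad in none.

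The regions nearest to a call were the 5 with the smallest p in each direction, and none of them passed (adjusted p of 0.801 for each, in limma). With groups taken from the exchanged free-text descriptions, 8 of these 10 turned direction. That exchange turns the Smc3 contrast into the Flt3-ITD contrast under title and genotype, so the new values are Flt3-ITD differences. At chr11:106332253-106334000 the widths were 1042 and 1376 bp in control and 971 and 1021 bp in Flt3-ITD, against 192 and 151 bp in Smc3 del/+ and 394 and 445 bp in Smc3-deleted Flt3-ITD. All 4 libraries with Smc3 deletion were narrower than all 4 without, and the Smc3 difference was -2.05 ± 0.253 (log2, SE; unadjusted p = 0.000108), or 4.13-fold narrower. No base of this region was covered in all 8 libraries at once. At chr4:117146109-117147350 the widths were 1000 and 1080 bp in control and 706 and 805 bp in Flt3-ITD, against 343, 307, 306 and 332 bp in the libraries with deletion, again with the sides apart (-1.47 ± 0.232). At chr15:81986824-81988268 the control widths were 605 and 511 bp and those of Flt3-ITD 1136 and 1214 bp, against 323, 305, 341 and 323 bp with deletion (-1.34 ± 0.215). These 3 regions were narrower with Smc3 deletion in both backgrounds.

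Both other regions of the narrower set overlapped between the sides. At chr13:37404312-37405245 control (361 and 393 bp) lay next to Smc3-deleted Flt3-ITD (372 and 384 bp), while Flt3-ITD reached 835 and 899 bp and Smc3 del/+ fell to 192 and 232 bp. At chr7:152100654-152101934 the 6 other libraries lay between 284 and 343 bp, and both Flt3-ITD libraries, at 1204 and 1281 bp, set the difference of -1.04 ± 0.163 (log2, SE): it was -2.01 with Flt3-ITD and -0.07 without.

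Among the 5 wider regions, 2 had the sides apart. At chr4:146820922-146824029 the widths were 415 and 402 bp in control, 1012 and 1196 bp in Flt3-ITD, 1577 and 1696 bp in Smc3 del/+ and 1896 and 2222 bp in Smc3-deleted Flt3-ITD (Smc3 difference 1.44 ± 0.22). These are bases summed over 1 to 4 peaks per library, and no base of this region was covered in all 8 libraries at once. The difference was 0.75 with an equal number of peaks, 0.82 when peaks up to 100 bp apart were merged and 1.01 for the widest peak alone. At chr2:169954028-169957700 control had 1341 and 1449 bp, Flt3-ITD 765 and 815 bp, Smc3 del/+ 2130 and 1613 bp and Smc3-deleted Flt3-ITD 2443 and 2725 bp (1.05 ± 0.134).

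In the 3 remaining wider regions the sides overlapped. Smc3 del/+ carried most of the difference at chr19:45634534-45635610, with 1064 and 949 bp against 193 and 166 bp in control, while Smc3-deleted Flt3-ITD (435 and 345 bp) overlapped with Flt3-ITD (320 and 372 bp). At chr5:111561762-111562956 Flt3-ITD had 118 and 138 bp and Smc3 del/+ 1131 and 834 bp, with control (332 and 359 bp) and Smc3-deleted Flt3-ITD (491 and 303 bp) between them. The largest of the 5 differences, 1.87 ± 0.30 on the log2 scale, was at chr2:160471021-160472516, where Smc3 del/+ gave 405 and 917 bp, Smc3-deleted Flt3-ITD 858 and 1301 bp, control 349 and 421 bp and Flt3-ITD 117 and 130 bp.

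**Figure D5:**
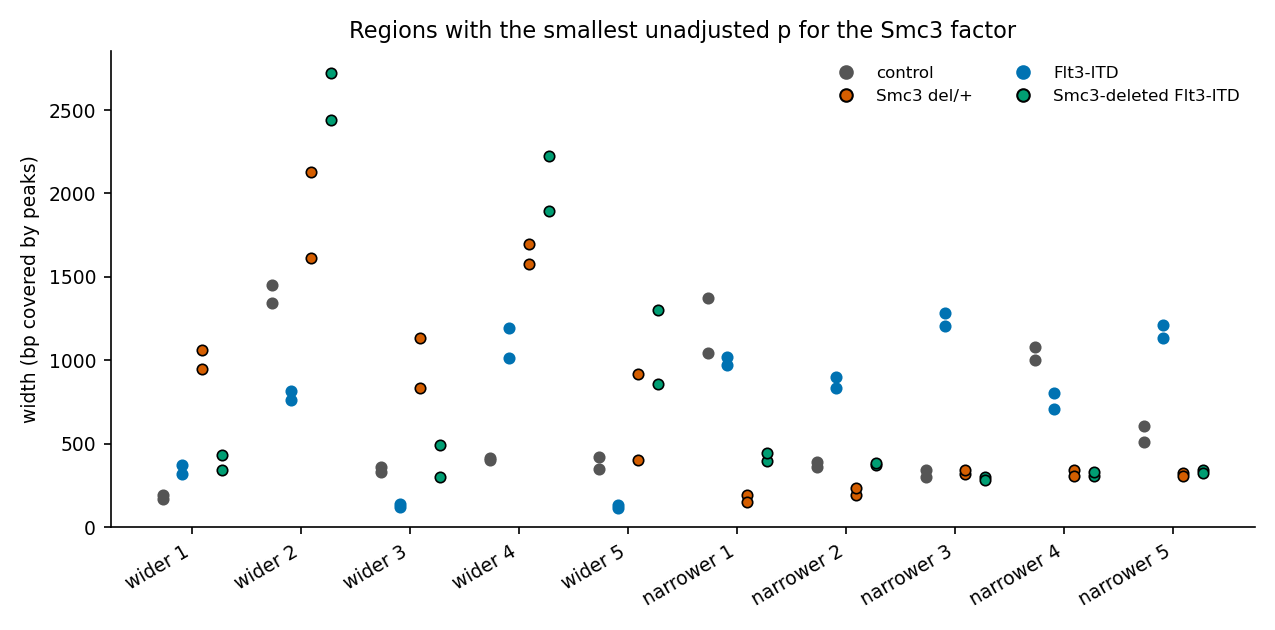
Width in bp is shown for each of the 8 libraries at the 5 wider and 5 narrower regions with the smallest unadjusted p for the Smc3 factor, numbered in the order of p; dots with a black rim are libraries with Smc3 deletion. The sides are apart at wider 2 (chr2:169954028-169957700), wider 4 (chr4:146820922-146824029), narrower 1 (chr11:106332253-106334000), narrower 4 (chr4:117146109-117147350) and narrower 5 (chr15:81986824-81988268).

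A full exchange of form along Smc3 status was rare. Broad in all 4 libraries with deletion and narrow in all 4 without were 24 regions (0.0683%), and 27 (0.0768%) showed the reverse. Their sum of 51 (0.145%) was below the median of 65 over the 35 splits (exact permutation p = 0.943). The split of the single genotypes against the other two gave 139 (0.395%), 118 of them broad in the single genotypes (exact permutation p = 0.0286). In each direction, the regions with the widest gap between the sides in log2 relative width were singled out after their values were seen, and the 2 widest gaps are given here in order. At chr18:43637071-43638200 the libraries with deletion measured 1002 and 998 bp (Smc3 del/+) and 957 and 1130 bp (Smc3-deleted Flt3-ITD), against 313 and 182 bp in control and 377 and 184 bp in Flt3-ITD. At chr8:3499637-3501539 they measured 1374 and 1326 bp and 1264 and 1429 bp, against 483 and 425 bp in control and 107 and 513 bp in Flt3-ITD, whose replicates lay far apart. In the opposite direction, chr14:101335903-101337630 measured 1255 and 1130 bp in control and 1465 and 1184 bp in Flt3-ITD, against 289 and 333 bp in Smc3 del/+ and 359 and 415 bp in Smc3-deleted Flt3-ITD. At chr4:140794678-140796333 control had 1249 and 1073 bp and Flt3-ITD 1278 and 1195 bp, against 386 and 463 bp in Smc3 del/+ and 383 and 118 bp in Smc3-deleted Flt3-ITD. Each of these regions had 1 peak in every library.

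Of the 109822 merged regions on the autosomes, 141 (0.128%) had a peak in all 4 libraries with Smc3 deletion and in none without, and 161 (0.147%) showed the reverse. These counts were not compared with other splits.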

How the data were processed

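The authors deposited 1 peak list per library, with mm9 positions, a peak name and a score for each peak. The submitters' processing notes name Bowtie and mm9; the peak caller, duplicate removal and any transposase offset were not given in the sources used here. Per the file contents, the deposited score lies between 0.99 and 1, and served only to rank peaks within a list. Ties in score were broken by width, the widest first. Width was computed as the bases covered by a library's peaks in a region, so that 1550 repeated intervals counted once. Read depth is unknown. The gene table at hand is for GRCm38, so genes, markers and sequences were not used here.

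Relative widths were fitted in limma 3.58.1 (R 4.3.3, with a mean-variance trend) on the log2 scale, with genotype means and contrasts. Library values were compared by exact two-sided permutation tests in scipy 1.17.1. The steps were tested on hand-made peak lists and on simulated widths with a normal spread around each region's mean. The simulated widths did not switch between the 2 forms, so they do not show how sensitive the model is to the real widths. Regions were named by p because fewer than 3 passed in either direction (the planned choice was the 10 largest changes among those that passed). No region was named for the difference of the Smc3 effects, since none passed. The comparison, the rule for regions and the tests were chosen with earlier results of these data known, and the 2 forms of width, the windows and the form exchanges were added after the widths were seen. For the single genotypes against control and Smc3-deleted Flt3-ITD, only the limma contrast was planned. The count of regions apart and the library tests for that split were not. Alternatives covered scaling, filters, the value per region, peak thresholds, merging, the model and each library left out.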

Additional observations from a re-analysis of the deposited data

Results flagged for a closer look

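In 4 library measures the Smc3 difference with Flt3-ITD had the opposite sign to that without. For each, the contrast of both differences had an exact permutation p of 0.0286 and an adjusted p of 0.0857 over 12 tests. Where libraries of a genotype lie close together, as here, the Smc3, the Flt3-ITD or this contrast is bound to reach that p. It therefore cannot show by itself that the effects differ. The effect with Flt3-ITD minus that without was -55.5 bp for the median width, -152.9 bp for the mean width and -16.0 percentage points for the share of broad regions. It was 0.942 percentage points for the share of regions with more than 1 peak, but with an equal number of peaks per list the effects were 0.105 without and -0.875 with Flt3-ITD, so the direction of that difference turned. These measures come from the same peaks and are not independent of each other. Only the control libraries lack Mx1-Cre, so Mx1-Cre enters the effect without Flt3-ITD and each of these differences. Among 44 sets of 4 libraries examined for a library far from the other 3, covering these measures and the regions examined singly, 0 had one. Each set was a whole Smc3 side, so a difference between its genotypes widens the range and can hide such a library.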

How the results depend on the processing

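All 26 alternatives for the Smc3 factor in limma gave 0 regions, with smallest adjusted p-values from 0.22 to 0.941. The exchange of descriptions, counted among them, is the Flt3-ITD factor under title and genotype. Outside the fits with a library left out, the 74 alternative fits over all 5 contrasts gave 0 calls. Leaving out 1 library gave 0 to 1 regions for Smc3 del/+ against control and 0 to 1 for the difference of the effects, the 1 in each case without control replicate 1. The number of regions at an unadjusted p under 0.05 for the Smc3 factor ran from 1463 (2 sides only) to 3428 (without Smc3 del/+ replicate 2). With the replicate number as a block in limma, 0 regions passed and 1819 had an unadjusted p under 0.05. Deviations of same-numbered libraries in relative width correlated between -0.0141 and 0.00886, so no pairing by number showed in these values. This does not show whether same-numbered libraries were prepared together.

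The count of regions with the Smc3 sides apart was 544 (2.85% of 19103 regions, exact permutation p = 0.4) where a stretch had to be covered in all 8 libraries. It was 561 (2.89% of 19431 regions, exact permutation p = 0.429) when only the upper 50% by score was kept. Both had fewer regions tested, and the medians over all splits were 520 and 550. With 1 library left out the rule is looser, and the count was 1907 to 2036 (5.42% to 5.79% of regions). The medians over all splits were then 1925 to 1999. For the single genotypes against control and Smc3-deleted Flt3-ITD the count was 903 (4.65%) with the upper 50%. With 1 library left out it was 2391 to 2872 (6.80% to 8.17%). There its exact permutation p rose from 0.0286 to 0.0857 in 4 of 8 cases (either control or either Smc3-deleted Flt3-ITD library). With groups taken from the exchanged free-text descriptions the Smc3 split becomes the Flt3-ITD split, with its 1123 regions (3.19%, exact permutation p = 0.143).

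With 1 library left out, the Smc3 difference in median width ran from -2.58 bp (without Smc3 del/+ replicate 1) to 10.4 bp, that in the broad share from -1.22 to 2.28 percentage points, and that in regions with several peaks from -0.24 to -0.0201. The first turned negative without either Smc3 del/+ library (-0.917 without replicate 2) and the second also without either control library (-0.665, -0.414 and, without Smc3 del/+ replicate 2, -1.12). For control and Smc3-deleted Flt3-ITD minus the single genotypes, the difference ran from -30.2 to -24.8 bp and from -8.41 to -7.55 percentage points; its p was then 0.0571, the smallest that 7 libraries allow in this test. Without the narrowest 25% of regions that difference was -78.4 bp, since the median then falls among wider regions. The exchange of descriptions turned 12 of 18 examined regions, to -0.187 (chr19:45634534-45635610), -0.144 (chr2:169954028-169957700), -1.36 (chr5:111561762-111562956), -0.394 (chr2:160471021-160472516), 0.543 (chr11:106332253-106334000), 1.05 (chr13:37404312-37405245), 0.916 (chr7:152100654-152101934), 0.607 (chr15:81986824-81988268), -0.451 (chr8:3499637-3501539), 0.258 (chr14:101335903-101337630), 0.117 (chr14:21748180-21749288) and 0.0616 (chr9:35377031-35378695) on the log2 scale. These are Flt3-ITD differences at regions chosen for Smc3. Whether the labels or the descriptions are right was not tested.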
